A study of Mus musculus with 8 samples.

Results

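The serpins are a family of protease inhibitors, and their genes were taken here as every gene whose symbol in the array annotation starts with Serpin. This gave 41 of the 28000 probe sets, of which 38 carried a single gene symbol and 3 carried several. The 38 stood for 27 genes of 13119 genes with a single symbol, and each gene was given by its probe set with the highest mean log2 signal. For testing, at least 4 arrays had to reach a signal of 100, and 24 of the 27 serpin genes met it, as did 12661 of all genes. The 3 that did not were Serpina5, Serpinb2 and Serpinb7.

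Uterine RNA of 4 Cox-1 KO mice and 4 wild-type (WT) mice at gestational d18.0 was hybridized to 8 Affymetrix mouse 430 2.0 arrays, with 1 mouse on each array. The Cox-1 KO females lack Ptgs1, the gene of cyclooxygenase-1, and were C57BL/6 x Sv129 by the labels. The WT females were C57BL/6, so that strain background and genotype cannot be told apart. Ages were 6 to 16 weeks in both groups. The labelled tissue is whole gravid uterus, and by the methods the fetuses, placentas and membranes had been taken off it before the RNA was extracted. In such bulk RNA, fewer cells of a type and less RNA per cell cannot be told apart. Values are MAS5 signals, the brightness of a probe set on a linear scale after each array was set to a target intensity of 1000, and they do not compare the level of one gene with that of another.

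The arrays were alike in overall brightness, with a median signal of 731 to 757 and 92.4 to 94.0% of probe sets at 100 or more. Ptgs1 read 88, 122, 76 and 136 in Cox-1 KO replicates 1 to 4, against 7048, 10610, 10756 and 10508 in WT replicates 1 to 4, as labelled. All 14 uterine tissue markers were measured and kept, with a summed signal of 300463 to 323844 in Cox-1 KO and 279370 to 316594 in WT. Across the whole array set, limma called 3 of 26444 probe sets at an adjusted p under 0.05 (0.0113%). At an unadjusted p under 0.05 there were 975 probe sets higher and 1355 lower in the Cox-1 KO.

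By the signal of Apoa1 the arrays fell into 2 sets. Apoa1, the main protein of high density lipoprotein, read 69038, 58425 and 51184 in Cox-1 KO replicates 1, 3 and 4 and 796 in Cox-1 KO replicate 2, against 50275 in WT replicate 4 and 342, 615 and 842 in WT replicates 1 to 3. No array lay between 842 and 50275, and the other 3 Apoa1 probe sets put the same 4 arrays on the high side. The Apoa1-high arrays were thus 3 of 4 in the Cox-1 KO and 1 of 4 in the WT. A gene that follows them is weighted toward the Cox-1 KO by their number alone, so each serpin is given below array by array, and the Apoa1-high arrays are described with no test, since a measured signal chose them.

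Most serpins trap their target protease by offering a reactive centre loop as bait. The protease cuts the loop and is then dragged across the inhibitor and locked to it, so that each serpin molecule works a single time. Clade A and several other secreted serpins circulate in plasma, where they hold back neutrophil elastase, thrombin, plasmin and the C1 proteases. The clade B serpins stay inside cells and guard against granule and lysosomal proteases, and a few family members, such as the collagen chaperone Serpinh1, inhibit no protease at all.

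No serpin passed the adjusted threshold between Cox-1 KO and WT. The smallest adjusted p among the 24 tested genes was 0.401 (limma, Benjamini-Hochberg over all 26444 probe sets), for Serpinb9b. By sign, 17 of the 24 were higher and 7 lower in the Cox-1 KO, with a median log2 fold change of 0.13 beside -0.01 for all genes kept. Before adjustment, 5 had p under 0.05 and were higher in the Cox-1 KO (Serpina1b, Serpina10, Serpind1, Serpinf2 and Serpinb9b), where 4.83% of all genes were. A single one had p under 0.05 and was lower (Serpinf1), where 4.37% of all genes were. Among the 5 higher, Serpina1b, Serpina10, Serpind1 and Serpinf2 needed the Apoa1-high arrays to pass the signal filter, and Serpinb9b did not. The filter favours such genes, so the count of 5 beside 4.83% is a description only. The count of 5 was 1 in a robust fit and 1 to 3 without Cox-1 KO replicate 1, 3 or 4 or without WT replicate 1, 2 or 3. The count of 1 lower was 0 without Cox-1 KO replicate 3 or WT replicate 1, 2 or 3. With 4 mice against 4, these p-values set the difference between the groups against the spread between mice within a group, as estimated by limma. For Serpina1b, Serpina10, Serpind1 and Serpinf2 that spread includes the split of the arrays by Apoa1.

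**Figure D1:**
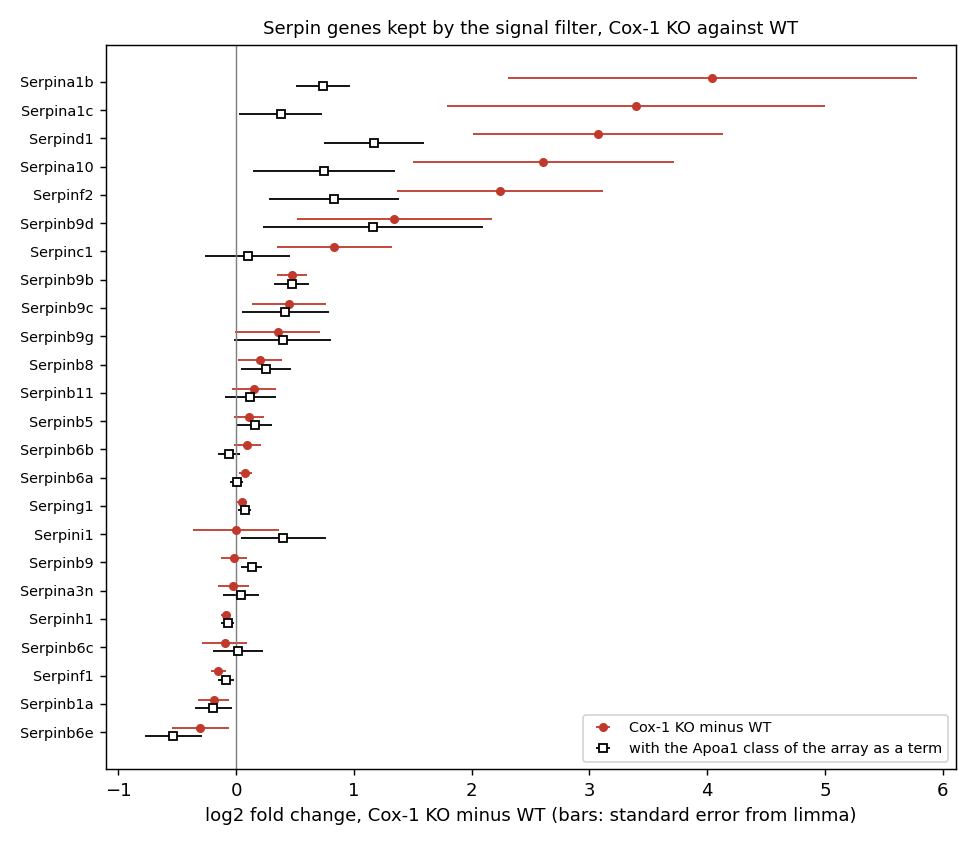
Log2 fold change of the 24 serpin genes kept by the signal filter, Cox-1 KO minus WT, with the standard error from limma as bars (x axis, log2 units; 1 gene per row). Red points are the comparison of genotypes, and open squares the same comparison with the Apoa1 class of the array as a term. Serpina1b at 4.04, Serpina1c at 3.39 and Serpind1 at 3.08 move to 0.74, 0.38 and 1.17 with the term, while Serpinb9b stays at 0.47. Serpina1b, Serpina1c and Serpind1 follow the Apoa1-high arrays and Serpinb9b does not, so these shifts follow from that and are a description only.

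Several serpins followed the Apoa1-high arrays. Of the 24 kept genes, 8 had all 4 Apoa1-high arrays above the other 4, against 5.1% of all genes kept. Serpina1c and Serpinf2 reached 100 on the Apoa1-high arrays alone. Serpina1b, Serpina10, Serpinc1 and Serpind1 also needed those arrays to be kept, and Serpinb6a and Serpinb6b did not. The filter itself thus favours such genes, and the count among kept genes is a description only. Of the 27 without the signal filter there were 10, against 5.11% of all genes. For 6 of the 27, the lowest Apoa1-high array stood at least 1 log2 unit above the highest other array, against 0.96% of all genes. These were Serpina1b, Serpina1c, Serpina5, Serpina10, Serpind1 and Serpinf2, all inhibitors of plasma or other secretions. With signals under 100 set to 100, 4 of the 27 remained at that distance (0.854% of all genes), without Serpina5 and Serpinf2, and 8 rather than 10 followed, without Serpina5 and Serpinb2. In the opposite direction, 1 of 24 had all Apoa1-high arrays below the others (Serpinb9, by 0.02 log2 units), against 4.64% of all genes kept.

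**Figure D2:**
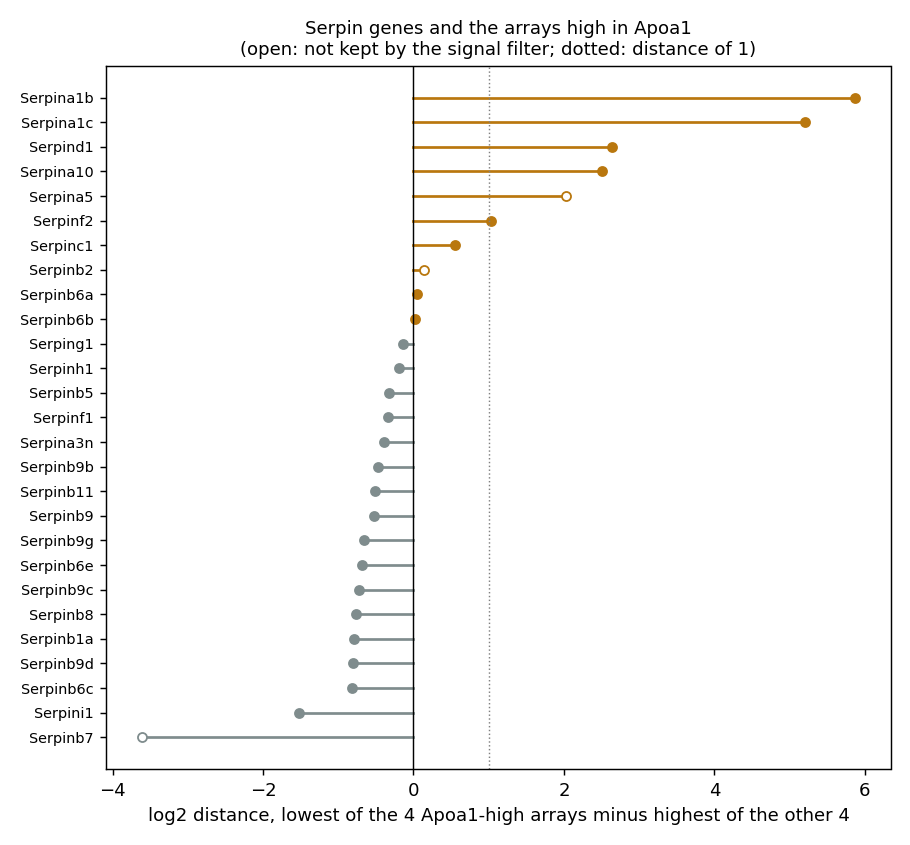
Distance on the log2 scale from the highest of the 4 arrays low in Apoa1 to the lowest of the 4 Apoa1-high arrays, for the 27 serpin genes (1 gene per row; open points were not kept by the signal filter). A positive distance means that the 2 sets of arrays do not overlap. Serpina1b at 5.87 and Serpina1c at 5.21 stand apart, 4 more genes pass the dotted line at 1, and the clade B serpins lie near or below 0. The distances of Serpina5 and Serpinb2 lie between signals under 100.

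The widest separation was that of the alpha-1-antitrypsin genes. Alpha-1-antitrypsin is the chief plasma inhibitor of neutrophil elastase, and the mouse carries several copies of its gene side by side. Serpina1b read 14405, 141, 11174 and 9007 in Cox-1 KO replicates 1 to 4, against 68, 95, 52 and 8237 in WT replicates 1 to 4. Cox-1 KO replicate 2 was low like WT replicates 1 to 3, and WT replicate 4 was high like the other Cox-1 KO arrays, so the genotypes overlapped. The lowest Apoa1-high array was 58.4-fold above the highest other array. Its second probe set gave the same picture, with 9626, 114, 7539 and 5195 in the Cox-1 KO against 38, 114, 108 and 4797 in the WT. Between genotypes, the log2 fold change of Serpina1b was 4.04 ± 1.74 (SE) with an adjusted p of 0.557 in limma. With an array left out it ran from 3.33 without WT replicate 3 to 5.77 without WT replicate 4, with adjusted p of 0.167 to 0.784 in limma.

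Serpina1c, a second copy, read 6618, 65, 5286 and 2813 in the Cox-1 KO, against 68, 76, 31 and 3266 in the WT. The same 4 arrays were high, at 2813 or more, while the other 4 stayed under 100. A probe set shared by Serpina1a and Serpina1d read 3218, 60, 2767 and 2063 in the Cox-1 KO and 61, 61, 35 and 1997 in the WT. A further probe set, annotated to Serpina1e, Serpina1c and Serpina1b together, did not follow them. It read 1258, 962, 1109 and 1118 in the Cox-1 KO and 1221, 1318, 1207 and 1137 in the WT, with no separation of the Apoa1-high arrays. Near-identical copies can share probes, so the signal of one Serpina1 gene may hold that of another.

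To show the stretch these copies have in common, the 250 bases before the start of Serpina1b (chr12:103738190-103738439, minus strand, GRCm38.p6) and of Serpina1c (chr12:103904951-103905200, minus strand) are printed 5′ to 3′ from RefSeq, ending at the base before the transcript start. Capitals mark the letters GTTAAT, a binding motif of the liver and yolk sac factor HNF1.
Serpina1b: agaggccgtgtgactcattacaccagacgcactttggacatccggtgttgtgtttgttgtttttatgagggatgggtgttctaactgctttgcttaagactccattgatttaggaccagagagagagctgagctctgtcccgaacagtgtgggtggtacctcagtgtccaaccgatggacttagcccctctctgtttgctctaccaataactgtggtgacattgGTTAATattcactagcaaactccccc
Serpina1c: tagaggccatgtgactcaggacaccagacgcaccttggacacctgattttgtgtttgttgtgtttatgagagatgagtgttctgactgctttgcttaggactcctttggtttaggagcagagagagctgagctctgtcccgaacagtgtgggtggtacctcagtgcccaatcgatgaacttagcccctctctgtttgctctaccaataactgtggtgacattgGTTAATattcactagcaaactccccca
These promoters were identical at 229 of 252 aligned columns (90.9%), and the capitals lie 26 to 21 bases before the start in Serpina1b and 27 to 22 in Serpina1c. GTTAAT also stood in the promoters of Serpina1a, Serpina1d and Serpina1e. RefSeq promoters were found for 24 of the 27 serpin genes, and both strands of these 250 bases were searched. Of the 6 genes with a distance of 1 or more, 5 had a promoter and 2 of these 5 held GTTAAT, as did 1 of the other 19 serpins and 6.43% of 32851 mouse promoters. The 2 were the copies Serpina1b and Serpina1c, which are not separate instances. CAAAGTCC, the core of the HNF4 site, was in 0 of the 5 and 1 of the 19, against 1.2% of promoters. TGTTTAC, the FOXA site, was in 0 of the 5 and 0 of the 19, against 3.17%. TATAAA, the TATA box, was in 0 of the 5 and 2 of the 19, against 12.4%. A match of letters does not show that a factor binds there.

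Inhibitors of the clotting cascade followed the same arrays. Serpind1, heparin cofactor II, which blocks thrombin, read 1781, 164, 1368 and 1128 in the Cox-1 KO, against 48, 23, 79 and 1024 in the WT. Cox-1 KO replicate 2 was above WT replicates 1 to 3 but far under the 4 Apoa1-high arrays, which were at least 6.24-fold higher than it. The log2 fold change was 3.08 ± 1.06 (SE) with an adjusted p of 0.526 (limma), and it ran from 2.38 without WT replicate 2 to 4.21 without WT replicate 4. Serpina10, the protein Z-dependent inhibitor of factor Xa, read 2243, 143, 1733 and 1013 in the Cox-1 KO and 21, 178, 97 and 1125 in the WT. Its genotypes overlapped, and its log2 fold change was 2.61 ± 1.11 (SE), adjusted p of 0.553 in limma. It was 1.69 without WT replicate 1, which read 21, and 3.60 without WT replicate 4.

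Serpinc1, antithrombin, the main plasma inhibitor of thrombin and factor Xa, was dim and followed more weakly. It read 307, 100, 213 and 230 in the Cox-1 KO, against 66, 145, 60 and 259 in the WT, with the lowest Apoa1-high array 1.47-fold above WT replicate 2. Its log2 fold change was 0.83, and 0.50 with signals under 100 set to 100. Serpinf2, alpha-2-antiplasmin, the fast inhibitor of plasmin, read 478, 34, 294 and 284 in the Cox-1 KO and 66, 18, 17 and 135 in the WT. Only WT replicate 4 among the WT arrays passed 100, and it was the lowest of the Apoa1-high arrays. The log2 fold change of Serpinf2 was 2.24 ± 0.87 (SE), with an adjusted p of 0.538 in limma, and 1.22 with signals under 100 set to 100. Serpina5, the protein C inhibitor, was too dim for testing, at 388, 13, 339 and 53 in the Cox-1 KO and 12, 6, 5 and 115 in the WT, where the only arrays over 100 were Apoa1-high ones.

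**Figure D3:**
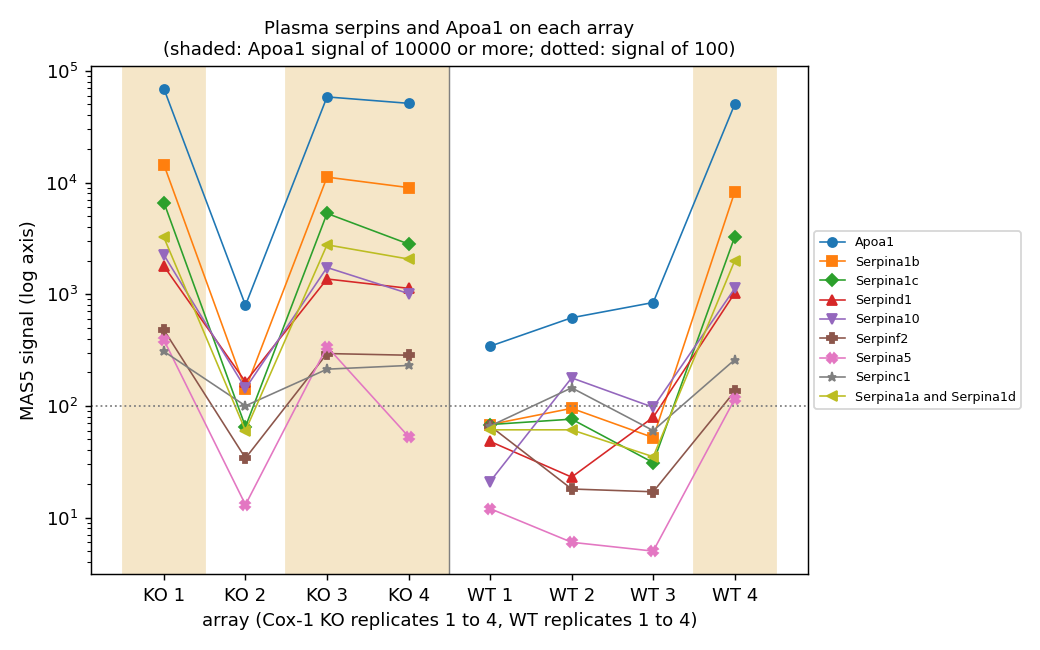
MAS5 signal (log axis) of Apoa1 and of serpins of plasma and other secretions on each of the 8 arrays. Cox-1 KO replicates 1 to 4 are on the left and WT replicates 1 to 4 on the right. Shading marks the arrays with an Apoa1 signal of 10000 or more, and the dotted line a signal of 100. Every serpin drawn drops in Cox-1 KO replicate 2 and climbs in WT replicate 4, as Serpina1b does at 141 and 8237.

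These plasma serpins were named for following the Apoa1-high arrays, so smaller genotype differences within arrays of like Apoa1 signal follow from that choice, and are a description only. Among the Apoa1-high arrays, the mean of Cox-1 KO replicates 1, 3 and 4 minus WT replicate 4 was 0.46 for Serpina1b, 0.50 for Serpina1c, 0.45 for Serpind1, 0.49 for Serpina10 and -0.07 for Serpinc1 on the log2 scale. Serpinf2 kept 1.34 there, and its WT array read 135. Each of these values sets 3 arrays against 1, so the lone array has no replicate. On the other 4 arrays most signals of these genes were under 100, and no difference is given. With the Apoa1 class as a term in the limma fit, 0 serpins were called, and the log2 difference of Serpina1b was 0.74 with an adjusted p of 0.687.

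Markers of other tissues were read on the same arrays. Leaving out Apoa1 itself, 12 of 14 plasma protein genes typical of yolk sac and fetal liver had all Apoa1-high arrays above the others, beside the 5.11% of all genes. Their summed signal was 371217, 43177, 295303 and 258803 in the Cox-1 KO, against 31633, 36262, 39919 and 234261 in the WT. Afp, alpha-fetoprotein, read 51203, 6441, 50393 and 49884 in the Cox-1 KO and 2578, 3973, 4964 and 47724 in the WT. Of 8 genes of yolk sac epithelium, 6 followed too, with a sum of 47402, 19314, 37940 and 27128 in the Cox-1 KO and 16337, 17680, 19810 and 31766 in the WT. Of 11 listed hepatocyte enzyme genes, only 5 were measured and 3 kept, so this list says little. Of the 5, 0 followed, and their sum was 4521 to 7077 in the Cox-1 KO and 3814 to 5401 in the WT. Among the 14 uterine tissue markers, 3 followed. The part of such tissue in the serpin values was not tested.

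Serping1, the C1 inhibitor, is a secreted plasma serpin as well but showed no such split. It read 34890, 36956, 37119 and 36916 in the Cox-1 KO, against 33974, 35751, 37460 and 33992 in the WT, and averaged 36470 ± 1057 in the Cox-1 KO and 35294 ± 1667 in the WT (SD, n = 4 each). The arrays of both genotypes, and those high and low in Apoa1, overlapped, and the log2 fold change of 0.05 ± 0.05 (SE) had an adjusted p of 0.783 in limma. Of 7 measured genes for complement C1 and lectin pathway proteases, 3 were higher and 4 lower by sign, with 1 lower at an unadjusted p under 0.05, where 4.37% of all genes were. That gene was C1s1, a target protease of the C1 inhibitor, at 10275, 11007, 10749 and 10031 in the Cox-1 KO and 11411, 12070, 12159 and 10767 in the WT. Its Apoa1-high arrays were the 4 lowest, as they were for C1ra. These were 2 of the 7 genes, beside 4.64% of all genes kept.

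Serpina3n, an acute-phase relative of antichymotrypsin, was also level, although it belongs to clade A like the Serpina1 genes. It read 1108, 1350, 1326 and 1157 in the Cox-1 KO and 1447, 962, 1450 and 1208 in the WT, with a log2 fold change of -0.02 ± 0.14 (SE) and an adjusted p of 0.974 in limma.

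Of the serpins that restrain plasminogen activators in tissue, 2 were measured. Serpinb2, plasminogen activator inhibitor 2, was below the filter with 80, 40, 64 and 225 in the Cox-1 KO and 2, 9, 26 and 44 in the WT. Cox-1 KO replicate 4 was its only array over 100. That array also held a summed signal of 55235 over 9 genes of squamous and basal epithelium. The sum was 3795 to 7327 in the other Cox-1 KO arrays and 1982 to 5489 in the WT. Most of the 55235 came from Krt10 at 37892 and Lor at 10429. Krt14, Krt5, Sprr1a and Trp63 were highest on that array too, while Krt6a, Krt15 and Krt4 were highest in Cox-1 KO replicate 1. Serpinb7, a serpin of keratinocytes singled out after its values were seen, likewise read 330 in Cox-1 KO replicate 4, beside 5 to 57 in the other Cox-1 KO arrays and 8 to 61 in the WT. The part of squamous epithelium in these signals was not tested. Serpini1, neuroserpin, an inhibitor of tissue plasminogen activator, was at 89 to 159 in the Cox-1 KO and 63 to 181 in the WT.

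The non-inhibitory serpins of the matrix were both lower by sign in the Cox-1 KO. Serpinh1 (Hsp47) is a chaperone of the endoplasmic reticulum that holds procollagen in its triple helix. It read 29279, 28025, 27387 and 27874 in the Cox-1 KO, against 31177, 30115, 29232 and 28821 in the WT, and Cox-1 KO replicate 1 overlapped the WT arrays. The log2 fold change was -0.08 ± 0.04 (SE), adjusted p of 0.602 in limma. On its second probe set all Cox-1 KO arrays, at 25736, 24817, 23206 and 23777, lay below all WT arrays, at 27942, 26540, 25981 and 26360, with a log2 fold change of -0.13 and an adjusted p of 0.530 (limma). By the probe set used for each gene, 0 of 24 serpins had all Cox-1 KO arrays below all WT arrays, where 2.5% of genes did.

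Serpinf1 (PEDF), a secreted factor that opposes vessel growth and binds collagen, read 13918, 14902, 14093 and 15036 in the Cox-1 KO and 17584, 15705, 16752 and 14426 in the WT. WT replicate 4 lay among the Cox-1 KO arrays and the other 3 WT arrays above them. The means were 14487 ± 564 in the Cox-1 KO and 16117 ± 1364 in the WT (SD, n = 4 each), and the log2 fold change was -0.15 ± 0.06 (SE) with an adjusted p of 0.554 in limma. The Apoa1-high arrays were the 4 lowest by its second probe set only. Among them the Cox-1 KO minus WT difference of Serpinf1 was -0.01, and among the other arrays -0.16. The 16 measured collagen chain, chaperone and modifying enzyme genes gave 10 higher and 6 lower by sign, with 0 at an unadjusted p under 0.05 in either direction.

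**Figure D4:**
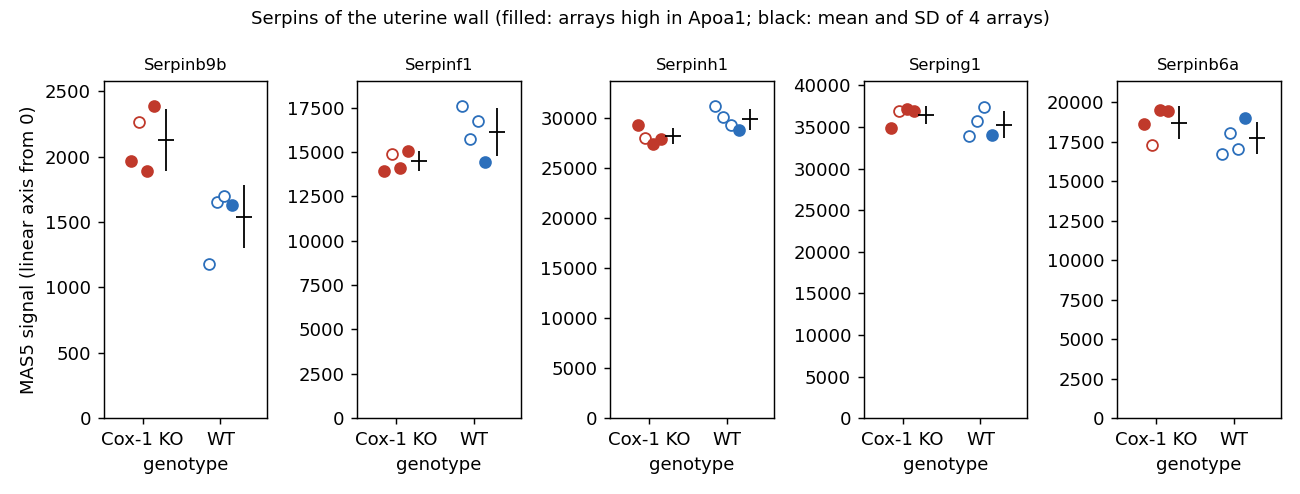
MAS5 signal (linear axes from 0) of 5 serpins that all arrays carried, Cox-1 KO left and WT right in each panel, with 1 point per mouse and the mean and SD of 4 arrays in black. Filled points are Apoa1-high arrays. Serpinb9b shows 4 Cox-1 KO points at 1889 or more above 4 WT points at 1703 or less, and in the other 4 panels the genotypes overlap.

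The clade B serpins, most of which work inside cells, made up 15 of the 27 genes with Serpinb2 and Serpinb7 included, and 13 were kept. By sign, 9 were higher and 4 lower in the Cox-1 KO, with log2 fold changes of -0.30 to 1.34 and a median of 0.11. Without WT replicate 1 the range was -0.28 to 0.35 and the median 0.021. By the probe set used for each gene, Serpinb9b was the sole serpin whose genotypes did not overlap in either direction. Of all genes, 1.84% had the Cox-1 KO above the WT on every array, and 2.5% had it below. With 24 kept serpins, a single gene of this kind cannot be set apart from these shares. Serpinb9b belongs to the Serpinb9 cluster of chromosome 13, whose namesake Serpinb9 inhibits granzyme B and guards cells against cytotoxic granules. Serpinb9b read 1971, 2265, 1889 and 2388 in the Cox-1 KO, against 1181, 1654, 1703 and 1633 in the WT, with means of 2128 ± 237 in the Cox-1 KO and 1543 ± 243 in the WT (SD, n = 4 each). The ratio of means was 1.38 and the log2 fold change 0.47 ± 0.13 (SE), adjusted p of 0.401 in limma. Apoa1-high arrays stood among both the high and the low values, and with the Apoa1 class as a term the log2 difference was again 0.47. Without WT replicate 1, its lowest array, it was 0.35.

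Serpinb9 itself read 1912, 2755, 2341 and 2177 in the Cox-1 KO and 2471, 2392, 2370 and 2029 in the WT, with a log2 fold change of -0.02 ± 0.11 (SE) and an adjusted p of 0.971 in limma. Its highest array was a Cox-1 KO one and so was its lowest. The further genes of the cluster, picked for description after their values were seen, had 1 array in common that stood low. Serpinb9d read 482, 577, 442 and 488 in the Cox-1 KO, against 20, 423, 517 and 331 in the WT. Serpinb9g read 728, 916, 759 and 887 in the Cox-1 KO and 254, 986, 1033 and 653 in the WT. A probe set shared by Serpinb9e, Serpinb9f, Serpinb9g and Serpinb9h read 1714, 2163, 1636 and 1829 in the Cox-1 KO and 599, 2275, 1919 and 1753 in the WT. In each, WT replicate 1 was the lowest array and the other 3 WT arrays overlapped the Cox-1 KO. Serpinb9c, at 310, 303, 188 and 183 in the Cox-1 KO and 94, 224, 187 and 237 in the WT, also had its lowest value there. The log2 fold changes were 1.34 for Serpinb9d, 0.35 for Serpinb9g, 0.32 for the shared probe set and 0.45 for Serpinb9c, with adjusted p of 0.654 to 0.803 in limma. Without WT replicate 1 they were 0.25 for Serpinb9d, -0.093 for Serpinb9g, -0.11 for the shared probe set and 0.15 for Serpinb9c, so these differences rested on that array. With signals under 100 set to 100, Serpinb9d had 0.76.

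Some of the trophoblast genes were low on that array too. Tpbpa, a marker of spongiotrophoblast, read 17387, 15619, 16819 and 13871 in the Cox-1 KO, against 5604, 15962, 18147 and 13103 in the WT. Prl7b1, a placental member of the prolactin family, read 10681, 12273, 10557 and 9774 in the Cox-1 KO and 3020, 10742, 8487 and 6846 in the WT. Over the 7 measured trophoblast and placenta markers the sum was 24296 to 29211 in the Cox-1 KO. In the WT it was 9784 in replicate 1, beside 20798 to 30216 in the other arrays. Tpbpa and Prl7b1 made up most of each sum. Prl4a1 was also lowest in WT replicate 1, at 22, but Ctsj was at its highest there, at 431. Psg21 at 539 and Psg18 at 101 were not at their lowest there. The part of trophoblast in the Serpinb9 cluster signals was not tested.

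**Figure D5:**
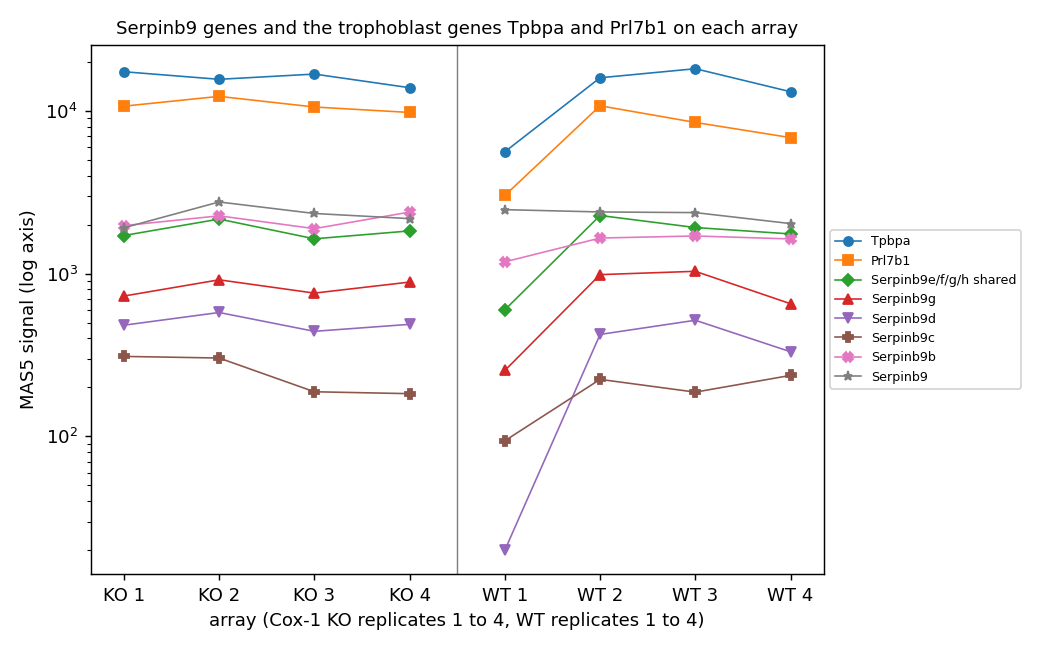
MAS5 signal (log axis) of 5 Serpinb9 genes, a probe set shared by 4 of them and the trophoblast genes Tpbpa and Prl7b1, on each of the 8 arrays, Cox-1 KO on the left and WT on the right. In WT replicate 1, Serpinb9d at 20, Serpinb9g at 254 and Tpbpa at 5604 are at their lowest, while Serpinb9 at 2471 is its highest WT value.

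The 250 bases before the start of 3 cluster genes, all on the plus strand of GRCm38.p6 and from RefSeq, are shown for the serpin whose genotypes did not overlap and for a pair that stood low on the same array. They are Serpinb9b (chr13:33027164-33027413), Serpinb9d (chr13:33192705-33192954) and Serpinb9g (chr13:33484540-33484789), printed 5′ to 3′ up to the base before the start, with the longest run that Serpinb9d and Serpinb9g share in capitals.
Serpinb9b: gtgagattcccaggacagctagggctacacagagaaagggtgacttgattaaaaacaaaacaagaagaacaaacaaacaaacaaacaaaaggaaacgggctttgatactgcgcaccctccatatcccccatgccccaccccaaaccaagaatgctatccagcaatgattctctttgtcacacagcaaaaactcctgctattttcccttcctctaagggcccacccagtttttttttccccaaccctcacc
Serpinb9d: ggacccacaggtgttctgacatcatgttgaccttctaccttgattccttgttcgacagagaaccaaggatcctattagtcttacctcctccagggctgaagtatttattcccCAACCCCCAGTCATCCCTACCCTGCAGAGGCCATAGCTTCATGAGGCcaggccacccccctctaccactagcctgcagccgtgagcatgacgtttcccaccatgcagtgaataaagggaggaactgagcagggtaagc
Serpinb9g: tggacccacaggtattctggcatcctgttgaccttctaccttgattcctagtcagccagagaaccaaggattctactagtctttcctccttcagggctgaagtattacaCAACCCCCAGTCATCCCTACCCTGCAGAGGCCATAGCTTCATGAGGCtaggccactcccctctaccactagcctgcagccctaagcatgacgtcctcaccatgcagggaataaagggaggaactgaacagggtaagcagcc
The shared run is 47 bases long and was not found whole in the promoters of Serpinb9b, Serpinb9c, Serpinb9e or Serpinb9f. Serpinb9d and Serpinb9g were identical at 87.8% of aligned columns, but Serpinb9e was closer to both, at 88.2% with Serpinb9d and 92.9% with Serpinb9g. Serpinb9b was at 43 to 44.3% with Serpinb9c to Serpinb9h. Serpinb9h was likewise distant, at 44.9 to 48.3% with Serpinb9c to Serpinb9g. Serpinb9 itself was not aligned.

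Granule and lysosomal proteases are the kind of enzyme that clade B serpins guard against. Of 16 measured genes for such proteases, 13 were higher by sign in the Cox-1 KO, 8 of them at an unadjusted p under 0.05 (4.83% of all genes), and 1 was lower at that level (4.37% of all genes). None passed the adjusted threshold. Those with the smallest p were granzymes. Gzme read 16617, 25125, 21813 and 27195 in the Cox-1 KO, against 17069, 14794, 15342 and 13526 in the WT, with a log2 fold change of 0.56 and an adjusted p of 0.309 in limma. Gzmc followed at 0.58, Gzmf at 0.41 and Gzmg at 0.39, with adjusted p of 0.423 to 0.506. In Gzme, Cox-1 KO replicate 1 overlapped the WT arrays and the other 3 Cox-1 KO arrays were above all of them. Markers of natural killer and cytotoxic cells, which make granzymes, were high on some of the same arrays. Of 6 measured, Prf1, Eomes and Il2rb were higher at an unadjusted p under 0.05, and Nkg7, Klrk1 and Klrd1 were lower by sign. Their sum was 3390, 4948, 4564 and 5524 in the Cox-1 KO, against 4294, 3829, 3681 and 3085 in the WT. Prf1, perforin, read 1884, 2962, 2531 and 3216 in the Cox-1 KO and 2220, 1971, 1677 and 1694 in the WT. Their part in the granzyme values was not tested.

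The other bright clade B serpins differed little. Serpinb6a, an inhibitor of cathepsin G, read 18637, 17273, 19501 and 19480 in the Cox-1 KO and 16753, 18036, 17077 and 19010 in the WT, with a log2 fold change of 0.08 ± 0.06 (SE) and an adjusted p of 0.709 in limma. Its Apoa1-high arrays were the 4 highest, though only 1.03-fold above the next. Serpinb6b, its paralogue, read 6458, 4468, 5317 and 5888 in the Cox-1 KO and 4373, 5243, 5210 and 5780 in the WT, and the step between the Apoa1-high and the other arrays was 1.01-fold. Serpinb1a, Serpinb5, Serpinb6c, Serpinb6e, Serpinb8 and Serpinb11 had log2 fold changes of -0.30 to 0.20 with overlapping genotypes. Serpinb5 (maspin) was at 1801 to 2550 in the Cox-1 KO and 1636 to 2248 in the WT.

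Genes outside the family that act with the plasma serpins were split over the arrays in part. Of 15 measured genes of thrombin and coagulation, 12 were higher by sign in the Cox-1 KO, 4 at an unadjusted p under 0.05, and 5 of 15 followed the Apoa1-high arrays, beside the 5.11% of all genes. F2, prothrombin, the target of Serpinc1 and Serpind1, read 7510, 196, 4474 and 2954 in the Cox-1 KO, against 122, 80, 70 and 2984 in the WT. Kng1, kininogen, read 13438, 1441, 10529 and 7214 in the Cox-1 KO and 916, 1077, 1436 and 6633 in the WT. Of the 15 plasminogen activation genes 4 followed, and of 18 other protease inhibitors 6 did. Agt, angiotensinogen, a serpin by fold that does not carry the family symbol, read 2689, 22, 1745 and 1046 in the Cox-1 KO and 12, 20, 20 and 969 in the WT. In all of these lists 0 genes passed the adjusted threshold in limma. At an unadjusted p under 0.05, plasminogen activation had 1 higher and 0 lower, and the other inhibitors had 5 higher and 0 lower. Among all genes, 4.83% were higher and 4.37% lower at that level. Of the 5, Agt, Ambp and Itih4 needed the Apoa1-high arrays to pass the signal filter, as F2 did among the coagulation genes. The filter favours such genes, so these counts are a description only.

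The 16 kept serpins that did not follow the Apoa1-high arrays upward had a median log2 fold change of 0.03, from -0.30 to 1.34, and without WT replicate 1 of 0.0058, from -0.28 to 0.35. By the methods' t-test with a ratio of means of 1.5 or more, 0 of the 24 serpins passed, where 86 of 12661 genes did (0.679%), of which 0 held after Benjamini-Hochberg adjustment. At that test's p threshold alone 2 of the 24 serpins passed (8.33%), Serpinb9b and Serpinh1, as did 749 of 12661 genes (5.92%), and neither serpin reached the ratio.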

How the data were processed

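Total RNA from the gravid d18.0 uterus of 4 Cox-1 KO and 4 WT mice was read on Affymetrix 430 2.0 arrays. The authors computed a signal intensity for each probe set with MAS5, setting each array to a target of 1000. The deposited intensity values are whole numbers and cover 28000 probe sets, and the 60 array controls among them were left out. How these 28000 were chosen is not given in the sources used here, and there are no detection calls, so the number of arrays limits the precision. The labels give Sv129 and 6 to 16 weeks, whereas the methods give 129P2 and an age from 8 weeks. The RNA of each array came from a single mouse.

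The 1 signal below 1 was raised to 1, and log2 values were used as they stood, with no further normalization. The 26444 probe sets that reached a signal of 100 on 4 or more arrays were compared by limma 3.58.1 in R 4.3.3 with its variance trend over signal. Benjamini-Hochberg adjustment ran over all of them, with a threshold of 0.05. A gene was given by its probe set with the highest mean log2 signal. Gene symbols are those of the platform annotation, and probe sets with several symbols named no gene. An array was called Apoa1-high at a signal of 10000 or more on one of its probe sets. The members, the gene lists and the tests were chosen with earlier results of these data known. Genes given with every array were those with an unadjusted p under 0.05, those without overlap of the genotypes, the 8 with the widest distance in either direction, the 6 brightest and a few chosen for their role, with up to 4 genes of each list that had the smallest p. The limma step was tested on simulated data.

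Promoters of RefSeq (GRCm38.p6) were aligned globally and searched with Biopython 1.88 and Python 3.11.15. Alternatives were a replicate block, array weights, a robust fit, a fit with no trend, median centring or quantile normalization of the arrays, 32 added to each signal, a floor of 100, a filter at 200 or none, the average over the probe sets of each gene, the Apoa1 class as a term, the Apoa1-high or the other arrays alone, and each array left out. The methods' t-test was run on log2 signal with unequal variances.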

Additional observations from a re-analysis of the deposited data

Results flagged for a closer look

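In each genotype of 4 arrays, the highest and the lowest signal of every serpin was checked for a gap to the next array that exceeded Dixon's critical value for its share of the whole range. Of 60 such groups, 10 had one. The critical value stands for about 1 in 20 by chance with independent, normally spread values. These groups are linear signals of genes read on the same arrays, some of them near-identical copies. The 10 are therefore not separate events and cannot be set against that rate. WT replicate 4 was the array set apart in 6 of them. It read 8237 for Serpina1b, with the other WT arrays at 52 to 95, and 3266 for Serpina1c, with the others at 31 to 76. The probe set shared by Serpina1d and Serpina1a read 1997 there, with the others at 35 to 61. Serpind1 read 1024 beside 23 to 79, Serpina10 read 1125 beside 21 to 178, and Serpina5, which was under the signal filter, read 115 beside 5 to 12. The same array was the only WT array high in Apoa1, and the part of that in these values was not tested.

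WT replicate 1 was set apart for Serpinb9b, at 1181 beside 1633 to 1703 in the other WT arrays, and for Serpinb1a, an inhibitor of neutrophil elastase, at 1829 beside 1404 to 1475. Cox-1 KO replicate 1 was set apart for Serping1, at 34890 beside 36916 to 37119 in the other Cox-1 KO arrays. Cox-1 KO replicate 4 was set apart for Serpinb7, which was under the signal filter, at 330 beside 5 to 57.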

How the results depend on the processing

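The count of serpins past the adjusted threshold was 0 under the 12 alternatives fitted with limma, by the methods' t-test after adjustment and with any array left out, and the median log2 fold change of the members ran from 0.04 to 0.22 with an array left out and from 0.08 to 0.20 otherwise. Serpins higher at an unadjusted p under 0.05 numbered 3 without the trend, 1 in a robust fit, 3 with the Apoa1 class as a term, and 1 to 7 with an array left out. Those lower at that level numbered 2 after quantile normalization, 0 after median centring, 0 without the trend, 2 for the average over each gene's probe sets, and 0 to 1 with an array left out. Serpins whose genotypes did not overlap numbered 2 after quantile normalization, 2 for that average, and 1 to 4 with an array left out, with 4 without Cox-1 KO replicate 2 or WT replicate 4 and 2 without Cox-1 KO replicate 1 or WT replicate 3. Those with all Apoa1-high arrays below the others numbered 1 to 3, with 3 without Cox-1 KO replicate 4 and 2 without Cox-1 KO replicate 2 or WT replicate 1 or 2, and those with them above numbered 8 with any array left out and 7 to 10 otherwise. With the replicate block, 6 serpins were higher and 0 lower at an unadjusted p under 0.05 and 0 were called. Arrays of the same number deviated from their group means with correlations of -0.25, 0.22, -0.18 and 0.17. Only for Cox-1 KO replicate 4 was the WT array of the same number the best match. The Apoa1 split enters these deviations, so they cannot decide whether arrays of the same number were handled together.

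For 17 named serpins that were tested, 320 of 340 values under the alternatives kept their direction and side of the threshold and 20 turned. Serpina5 and Serpinb2 had no test, and fits that change only the model could not be run on them. Serping1 was -0.0035 after quantile normalization. Serpinb9 was 0.030 for the average over its probe sets, 0.13 with the Apoa1 term, 0.19 on the arrays low in Apoa1 and 0.074 on the Apoa1-high arrays, and -0.11 to 0.063 with an array left out. Serpina3n was 0.039 with the Apoa1 term, 0.095 on the arrays low in Apoa1 and -0.15 to 0.050 with an array left out. Serpinb6b was -0.059 with the term and -0.14 on the arrays low in Apoa1, where Serpinb6a was -0.00060. On the Apoa1-high arrays Serpinc1 was -0.069 and Serpinb9c -0.11. Serpinb9g was -0.093 to 0.58 with an array left out, the lowest without WT replicate 1. The causes were not tested. A fold of a dim gene depends on the floor. Serpinb2 had a log2 difference of 2.78 as deposited and of 0.29 with signals under 100 set to 100.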
